A study of Mus musculus with 4 samples.

Results

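A set of 9 genes that encode antimicrobial and protective proteins of the airway surface was followed in mouse lung. They were Bpifa1, Bpifb1, Reg3g, Lyz1, Lyz2, Ltf, Lcn2, Slpi and Pigr. All 9 were on the array, with 13 probe sets, out of 18194 genes with a probe set of their own symbol, and all 9 were among the 12736 genes tested. They were picked by name, with the difference between the groups already known for some of them, so their values in that comparison are a description and no p-value is given for them. Reg3g passed the filter on low values only through the wild type arrays, since its floxed arrays lay below the filter's level of 20.4.

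The study measured lung RNA on 4 Affymetrix arrays, 2 from wild type and 2 from IKKa floxed mice of strain B6/J. Every mouse, wild type included, had received an adenovirus carrying Cre recombinase into the trachea, and lungs were collected 4 months later. IKKα belongs to the kinase complex that acts upstream of NF-κB. A floxed allele is flanked by loxP sites and is cut only in cells that the virus reached, and the share of such cells is not given in the sources used here. The labels name no promoter that would limit Cre to 1 cell type. Ages are not stated, and nothing says whether each array stands for its own animal, so the p-values cover the spread among these arrays alone, and that spread may be technical. The targeted gene's own transcript is not analysed here.

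The fluid that lines the airways carries proteins that bind, starve or lyse microbes, and it is made by club cells, goblet cells and submucosal glands, with a share from macrophages and neutrophils. BPIFA1 and BPIFB1 are secreted proteins of the BPI fold family, whose founding member binds bacterial lipopolysaccharide. REG3G is a lectin that kills Gram-positive bacteria, and lysozyme cuts the peptidoglycan of their wall. Lactoferrin, from Ltf, withholds iron, lipocalin 2 captures bacterial siderophores, and SLPI inhibits neutrophil elastase. PIGR carries polymeric IgA and IgM across the epithelium into the lumen.

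Array medians ran from 32.1 to 34.3, and every array had a trimmed mean of 150.001, so the deposited values had been scaled to a common level. Pearson's r over genes, which are no independent replicates, was 0.991 between the wild type arrays, 0.987 between the floxed arrays and 0.972 to 0.976 between arrays of different groups. The groups differed in sex pattern. Xist, the RNA of the inactive X chromosome, stood at 31.8 and 22.9 in wild type against 4246 and 4629 in floxed lungs, and the Y-linked Eif2s3y at 519 and 530 against 3.77 and 6.14. Genotype and sex pattern cannot be told apart in any difference below. The Gapdh control probes read higher at the 3′ end than at the 5′ end by a ratio of 1.18 and 1.10 on the wild type arrays and of 1.44 and 1.68 on the floxed arrays. For the actin control probes the ratio was 2.65 and 2.46 against 2.67 and 2.77. Markers of the lung were present on all arrays, with the alveolar type 2 gene Sftpc from 8743 to 13619 and the club cell gene Scgb1a1 from 14417 to 19539.

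The sequence just before the start of each gene was taken from RefSeq (build GRCm38.p6), where all 9 genes matched, Bpifb1 with more than one start. Shown first are Bpifb1 and Reg3g, which were lower in the floxed lungs, and Slpi, which was higher. Each is the 250 bases before the start, 5′ to 3′ on the gene's own strand, at chr2:154190568-154190817 on the plus strand (Bpifb1, its first listed start), chr6:78468875-78469124 on the minus strand (Reg3g) and chr2:164356508-164356757 on the minus strand (Slpi). Capitals mark matches to the motifs named after the sequences.
Bpifb1: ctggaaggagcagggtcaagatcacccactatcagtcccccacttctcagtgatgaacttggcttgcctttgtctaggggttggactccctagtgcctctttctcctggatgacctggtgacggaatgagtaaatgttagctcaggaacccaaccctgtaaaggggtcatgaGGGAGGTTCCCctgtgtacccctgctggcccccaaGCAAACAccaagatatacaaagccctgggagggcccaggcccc
Reg3g: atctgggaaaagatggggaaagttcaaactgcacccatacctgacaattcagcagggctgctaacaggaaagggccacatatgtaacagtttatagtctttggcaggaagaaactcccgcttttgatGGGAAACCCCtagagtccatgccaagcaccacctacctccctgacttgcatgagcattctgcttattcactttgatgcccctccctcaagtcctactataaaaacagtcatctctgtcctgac
Slpi: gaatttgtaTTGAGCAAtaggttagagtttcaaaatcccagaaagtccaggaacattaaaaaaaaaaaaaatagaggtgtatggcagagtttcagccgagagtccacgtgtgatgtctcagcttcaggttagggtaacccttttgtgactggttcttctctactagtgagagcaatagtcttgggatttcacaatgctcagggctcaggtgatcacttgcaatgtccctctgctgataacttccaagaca

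The windows were searched on both strands for the κB consensus of NF-κB, the C/EBP motif TTGCNNAA, the STAT motif TTCNNNGAA and the forkhead motif TGTTTNC. The κB consensus matched in Bpifb1 and Reg3g, in 2 of the 9 genes, and in 7.25% of 32851 windows of the same length. In Reg3g the match GGGAAACCCC fits on both strands at one place, 123 bases before the start. In Bpifb1 the matches GGGAGGTTCC and GGAGGTTCCC overlap, 78 and 77 bases before the start, and the forkhead match GCAAACA lies at 43. The C/EBP motif was found in 4 of the 9 genes, Lyz1, Ltf, Lcn2 and Slpi, and in 9.56% of all windows. The forkhead motif was found in Bpifb1 and Ltf and in 17.8% of all windows, and the STAT motif at the second start of Bpifb1 and in 7.02%. Bpifa1, Lyz2 and Pigr had no match to these 4 motifs in the window. A match describes the letters only.

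The lysozyme genes are neighbours on chromosome 10, and their windows are shown because their probe sets did not move together. The windows lie on the minus strand at chr10:117292869-117293118 (Lyz1) and chr10:117282273-117282522 (Lyz2).
Lyz1: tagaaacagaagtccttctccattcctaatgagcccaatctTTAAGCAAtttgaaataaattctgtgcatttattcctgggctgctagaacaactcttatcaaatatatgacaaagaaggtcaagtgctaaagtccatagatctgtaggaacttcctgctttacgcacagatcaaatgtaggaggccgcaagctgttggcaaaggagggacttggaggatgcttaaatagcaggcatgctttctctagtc
Lyz2: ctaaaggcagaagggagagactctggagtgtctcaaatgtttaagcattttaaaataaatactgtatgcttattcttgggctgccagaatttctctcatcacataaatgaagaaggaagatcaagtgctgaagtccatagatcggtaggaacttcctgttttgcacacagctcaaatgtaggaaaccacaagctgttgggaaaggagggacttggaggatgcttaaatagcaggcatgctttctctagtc
They were identical at 200 of 252 aligned positions, 79.4%, while every other pair of windows among the 9 genes lay between 40% and 49.5%. The capitals in Lyz1 mark the C/EBP match, which the Lyz2 window lacks.

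The 9 genes did not move as a block. Bpifa1, Bpifb1, Reg3g and Ltf were lower in the floxed lungs and Slpi was higher. On their brightest probe sets Lcn2 and Lyz1 were 1.30-fold and Lyz2 was 1.18-fold above wild type, and the groups overlapped for Pigr. In the limma fit over all genes, 5 of the 9 passed an adjusted p of 0.05, 4 lower and 1 higher, where 1.73% of all genes passed, 0.73% lower and 0.997% higher. The groups did not overlap, in either direction, for 8 of the 9 and for 45.7% of all genes. An unadjusted p under 0.05, counted below for several lists, was reached by 14.3% of all genes. Nothing is read from these counts, since the same comparison was in view when the genes were picked. Their median log2 fold change was -0.07, beside 3.2e-05 for all genes tested. Log2 fold changes here are floxed minus wild type on log2(intensity + 16), which understates changes of dim genes. In whole lung, fewer cells of a type and less RNA per cell cannot be told apart.

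**Figure D1:**
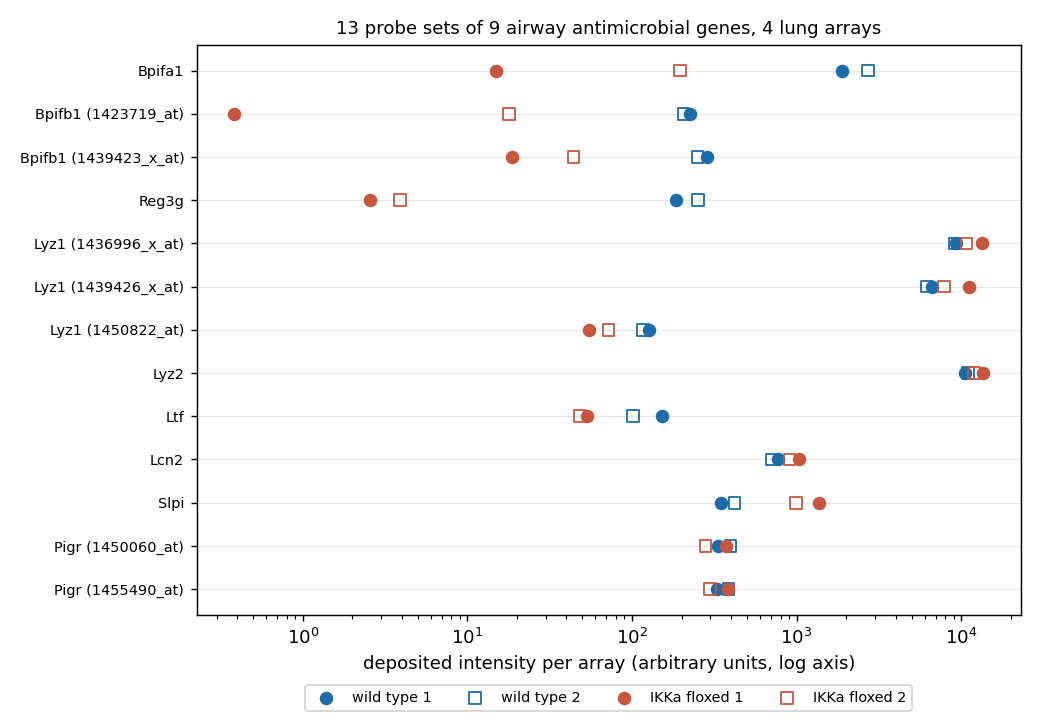
Deposited intensity of each of the 13 probe sets on the 4 arrays, on a log axis. Blue marks wild type and red IKKa floxed lungs, with filled circles for replicate 1 and open squares for replicate 2. The floxed arrays lie to the left of both wild type arrays for Bpifa1, Bpifb1, Reg3g, Ltf and the Lyz1 probe set 1450822_at. They lie to the right for Slpi and, by less, for Lcn2, Lyz2 and the other Lyz1 probe sets.

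Bpifa1, among the most abundant secreted proteins of the nose and upper airways, had intensities of 1878 and 2710 in the wild type lungs against 14.99 and 195 in the floxed lungs. Both floxed arrays lay below both wild type arrays, and they lay far from each other. The group means were 2294 ± 588 and 105 ± 128 (SD, n = 2 each), a log2 fold change of -4.81 ± 0.77 (limma SE). Only 1 of all genes tested had a lower value. The floxed arrays differed by 2.77 on the log2 scale, the widest gap between them of any gene tested. The fold change was -3.43 without floxed replicate 1 and -6.20 without floxed replicate 2, so the size of the difference depends on 1 array. The wild type gap of 0.53 also stood above that of most genes, at the 96.8th percentile.

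Bpifb1, whose gene lies close to Bpifa1 on chromosome 2, was measured by both of its probe sets in the same direction. The brighter one, 1439423_x_at, read 287 and 250 in wild type against 18.7 and 44.1 in floxed lungs. The group means were 269 ± 26.0 and 31.4 ± 18.0 (SD, n = 2 each), and the log2 fold change was -2.64 ± 0.25 (SE). Its suffix marks probes that can also bind other transcripts. The other probe set, 1423719_at, has no such suffix and read 226 and 205 in wild type against 0.384 and 17.95 in floxed lungs, a log2 fold change of -3.29. On both probe sets, floxed replicate 1 was the lowest array, as for Bpifa1.

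The relatives of these genes showed no call. Of 16 listed relatives, 10 were on the array and 4 were tested. None of the 4 passed limma's adjusted p of 0.05, none had an unadjusted p under 0.05, and their log2 fold changes ran from -0.04 to 0.05. Bpifa5, the gene between Bpifa1 and Bpifb1, stood at 28.2 and 21.1 in wild type against 27.4 and 24.3 in floxed lungs. Cdk5rap1, the next gene on the other side of Bpifb1, stood at 154 and 75.2 against 72.1 and 201. Pltp, the phospholipid transfer protein of plasma, was the brightest relative and read 4148 and 3581 against 3410 and 4093. The 6 relatives below the filter, Bpifa2 and Bpifb2 among them, read 0.658 to 18.4 on all arrays.

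Reg3g read 184 and 251 in wild type against 2.56 and 3.90 in floxed lungs. The floxed values are near the bottom of the array's range and, unlike those of Bpifa1, close to each other. The means were 218 ± 47.6 and 3.23 ± 0.946 (SD, n = 2 each), with a log2 fold change of -3.59 ± 0.16 (SE). Because the floxed values are so low, this fold change depends on the pseudocount, and it was -5.69 with a pseudocount of 1 and -2.06 with 64. Of 6 other Reg genes on the array, 1 passed the filter, Reg2, which read 26.5 and 20.5 against 25.0 and 20.5. Its log2 fold change was -0.03 ± 0.14 (SE, limma adjusted p = 0.958). The remaining 5, among them the close paralog Reg3b, read 0.385 to 26.2 on all arrays.

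Ltf, which is made by airway glands and stored in neutrophil granules, read 152 and 102 in wild type against 53.1 and 48.1 in floxed lungs. The groups did not overlap, and the wild type arrays were the more spread, with a gap of 0.51 at the 96.5th percentile of all genes. The means were 127 ± 35.5 and 50.6 ± 3.52 (SD, n = 2 each), and the log2 fold change was -1.08 ± 0.18 (SE). Leaving out one array moved it between -1.34 and -0.82. No call of Ltf is read from these fits, since the members were picked with this comparison in view.

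Slpi was the member with the largest rise in the floxed lungs. It read 347 and 420 in wild type against 1365 and 996 in floxed lungs, with no overlap. The means were 383 ± 51.5 and 1181 ± 261 (SD, n = 2 each), a log2 fold change of 1.57 ± 0.18 (SE) or 2.97-fold. With one array left out it stayed between 1.35 and 1.80. Of all genes tested, 34 had a higher value.

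Slpi sits in a family of inhibitors with a WAP domain. Of 19 listed relatives, 12 were on the array and 8 were tested, and none passed limma's adjusted p of 0.05, while 1 had an unadjusted p under 0.05. Their median log2 fold change was 0.12, with a range from -0.52 to 0.35. Wfdc2, an abundant product of airway epithelium, read 6335 and 6221 in wild type against 6752 and 6002 in floxed lungs. Of the elastase-type proteases of neutrophil granules, Elane, Ctsg and Prtn3 lay below the filter, with values from 2.25 to 24.6.

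Lcn2 read 776 and 710 in wild type against 1029 and 908 in floxed lungs. Both floxed values lay above both wild type values, and the gap was small. The means were 743 ± 46.7 and 968 ± 85.9 (SD, n = 2 each), and the log2 fold change was 0.37 ± 0.13 (SE). Partners of lactoferrin and lipocalin 2 in iron handling were tested with the elastase group. Of these 13 genes none passed limma's adjusted p of 0.05 and none had an unadjusted p under 0.05, with a median of -0.02. Slc22a17, which encodes a receptor for lipocalin 2, read 48.9 and 82.7 against 58.5 and 48.5. Fth1, the ferritin heavy chain, read 10815 and 10916 against 11866 and 11047.

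**Figure D2:**
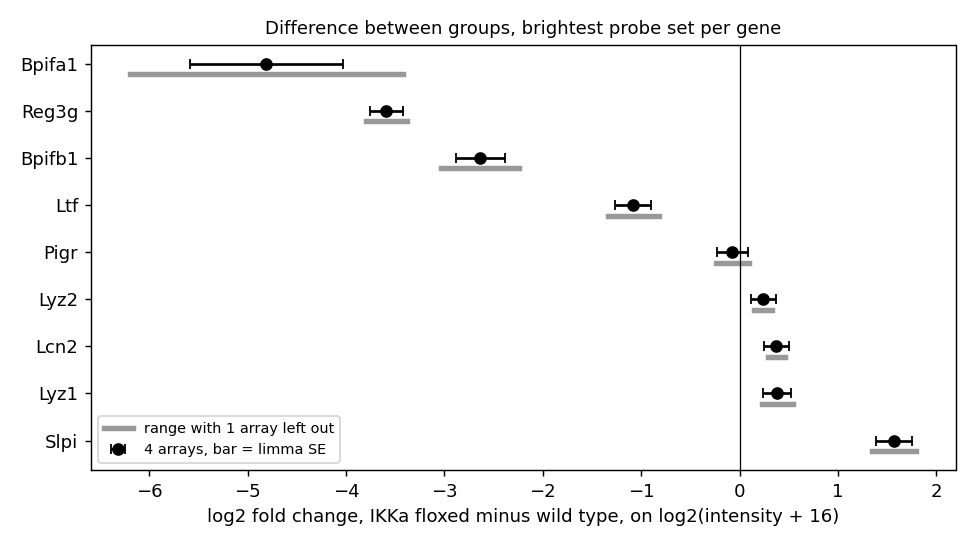
Log2 fold change of the 9 genes, IKKa floxed minus wild type, for the brightest probe set of each gene. Black points show the fit on 4 arrays with the limma standard error, and grey bars the range when 1 array is left out. Bpifa1 has the widest grey bar, from -6.20 to -3.43, and only the bar of Pigr crosses 0.

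Lysozyme gave opposite answers on different probe sets. Mice carry Lyz2, expressed in macrophages and alveolar type 2 cells, and Lyz1, known from Paneth cells of the gut. The Lyz2 probe set read 10604 and 10971 in wild type against 13596 and 11956 in floxed lungs, a log2 fold change of 0.24 ± 0.13 (SE). The brightest Lyz1 probe set, 1436996_x_at, read 9283 and 9185 against 13452 and 10799, and 1439426_x_at read 6698 and 6176 against 11211 and 7885. Their log2 fold changes were 0.38 and 0.55. The third Lyz1 probe set, 1450822_at, carries no suffix for shared probes. It read 128 and 116 in wild type against 54.7 and 71.9 in floxed lungs, a log2 fold change of -0.81.

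Each lysozyme probe set separated the groups, in one direction or the other. As a share of their own wild type mean, the floxed arrays stood at 146% and 117%, 174% and 122%, and 44.9% and 58.9% on the 3 Lyz1 probe sets in the order above. They stood at 126% and 111% on that of Lyz2. Floxed replicate 1 lay farther from wild type than replicate 2 on each of the 4 probe sets. Quantile normalization took the Lyz2 value from 0.24 to -0.0032 (SE 0.117) and that of the main Lyz1 probe set from 0.38 to 0.14. That scaling gives equal ranks equal values on all arrays, so among the brightest probe sets it leaves little room for a difference. The highest intensity of an array was 14910 and 14417 in wild type against 19539 and 16645 in floxed lungs. Whether the scale of the brightest values had a part in the lysozyme differences was not tested. How much Lyz2 transcript bound to the Lyz1 probes was not tested.

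**Figure D3:**
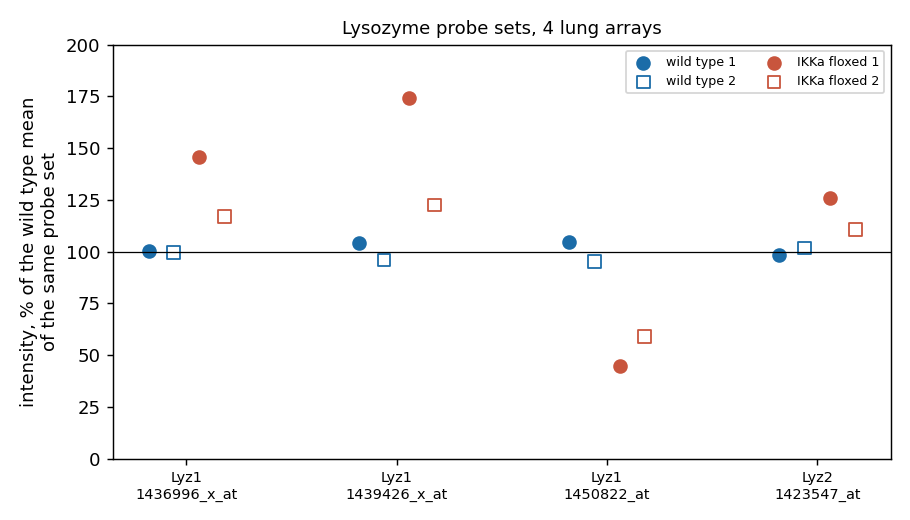
Intensity of the lysozyme probe sets on each array, as a percentage of the wild type mean of the same probe set, with colours and symbols as in the plot of intensities. The floxed arrays lie between 111% and 174% on the Lyz2 probe set and on the Lyz1 probe sets ending in _x_at, and at 44.9% and 58.9% on 1450822_at.

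Pigr was the member with overlapping groups. Its brighter probe set read 330 and 385 in wild type against 381 and 299 in floxed lungs, and the other read 332 and 397 against 373 and 280. The log2 fold change was -0.07 ± 0.16 (SE) for the first and -0.16 for the second. Genes that supply the antibody carried by the receptor were higher on the same arrays. Igha, the heavy chain of IgA, rose from 815 and 594 to 10105 and 7956 (log2 fold change 3.66 ± 0.19 SE, limma adjusted p = 5.35e-04). Jchain, which joins IgA into dimers, rose from 324 and 673 to 6470 and 6874 (3.79 ± 0.30 SE, adjusted p = 0.00259).

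Of 15 genes listed for the supply of polymeric antibody, 14 were on the array and 12 were tested. Limma passed 3 of them, all higher, and the third was Mzb1, a chaperone of antibody secretion (1.61 ± 0.18 SE, adjusted p = 0.00838, and 0.0567 with no filter on low genes). The median of the 12 was 0.57, and 11 lay above 0. The direction of the antibody genes was known before the list was drawn up.

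The other secreted defence genes gave calls in both directions. Of 28 listed, 27 were on the array and 13 were tested, and limma passed 1 higher and 2 lower, with a median of 0.10. Over all genes tested 1.73% passed. In the list 4 of the 13 had an unadjusted p under 0.05, beside 14.3% of all genes. Cxcl17, a mucosal chemokine, fell from 505 and 503 to 271 and 238 (log2 fold change -0.95 ± 0.12 SE, limma adjusted p = 0.0179). Hamp, which encodes the iron hormone hepcidin, fell from 52.0 and 50.4 to 15.0 and 24.6 (-0.92 ± 0.16 SE, adjusted p = 0.0455), on a probe set whose suffix marks shared probes. Ccl20, a chemokine with antibacterial activity, rose from 35.2 and 19.9 to 68.9 and 90.8 (1.15 ± 0.20 SE, adjusted p = 0.0484).

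Each of the 3 calls depended on single arrays. Limma's adjusted p for Cxcl17 was 0.0592 without wild type replicate 2. For Hamp it was 0.0953 without wild type replicate 1, 0.0988 without wild type replicate 2 and 0.0710 without floxed replicate 1. For Ccl20 it was 0.103, 0.0556 and 0.102 without wild type replicate 2, floxed replicate 1 and floxed replicate 2, and without the filter all 3 genes missed the threshold (0.0809 for Cxcl17, 0.156 for Hamp and 0.162 for Ccl20). The Hamp probe set without the suffix gave -1.28 (limma adjusted p = 0.0147), and the mean of its probe sets -1.10 (adjusted p = 0.00598). The floxed mean of Hamp on the suffixed probe set lay under the filter's level.

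Among the brightest of these genes, the lung collectin genes Sftpa1 and Sftpd had log2 fold changes of 0.10 and 0.21, and Chil3, a chitinase-like protein of macrophages, stood at 0.55 ± 0.12 (SE, limma adjusted p = 0.0893). Chil3 read 4742 and 5076 in wild type against 7224 and 7193 in floxed lungs. The 14 genes left out by the filter read 0.335 to 25.6 on all arrays. They included Lpo and Dmbt1 of airway glands, the antimicrobial peptide gene Camp, and Duox1, an oxidase that feeds lactoperoxidase.

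The cytokines IL-17 and IL-22 are known to induce Lcn2 and Reg3g in mucosal epithelium. Of 30 genes listed for that axis, 25 were on the array and 20 were tested, with a median log2 fold change of 0.08. One passed limma's threshold. Il12b, the p40 chain shared by interleukins 12 and 23, rose from 18.7 and 20.9 to 49.9 and 48.6 (0.87 ± 0.12 SE, adjusted p = 0.0203). Its wild type mean lay under the filter's level, so it was tested only through the floxed arrays, and its adjusted p without the filter was 0.0856. That call was lost without either wild type array or floxed replicate 1 (limma adjusted p = 0.0782, 0.0619 and 0.0521). Il17a lay below the filter at 3.66 to 25.6, and Il6 at 0.346 to 5.46. Nfkbiz, a mediator of the response to IL-17, read 307 and 319 in wild type against 302 and 383 in floxed lungs, and Stat3, through which IL-22 signals, 645 and 671 against 799 and 851 (0.32 ± 0.12 SE, adjusted p = 0.293).

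Genes of the cells that make these secretions differed from each other. In the goblet cell list, 6 of 14 genes were tested, all 6 lay below 0 and 2 fell. Muc5b, a gel-forming mucin, fell from 110 and 163 to 2.07 and 24.2 (log2 fold change -2.48 ± 0.36 SE, limma adjusted p = 0.0255). Tff2, a trefoil peptide, fell from 104 and 110 to 8.25 and 24.1 (-1.98 ± 0.23 SE, adjusted p = 0.0101). Both were tested only through the wild type arrays, since their floxed means lay under the filter's level. On both, as on Bpifa1 and Bpifb1, floxed replicate 1 was the lowest array, and without the filter neither passed (limma adjusted p = 0.119 for Muc5b and 0.0685 for Tff2). The goblet cell list's summed intensity, untested genes included, was 606 and 755 in wild type against 353 and 400 in floxed lungs. Muc5b and Tff2 are part of these sums. Tff1, the brightest gene of the list, overlapped between the groups, at 111 and 200 in wild type against 134 and 149 in floxed lungs. Muc5ac read 1.96 to 10.3 and Spdef, a goblet cell transcription factor, 5.13 to 19.9.

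Of 12 club cell genes 2 fell. Scgb3a1, a secretoglobin, fell from 3158 and 2906 to 79.8 and 236 (-4.29 ± 0.40 SE, limma adjusted p = 0.00519, and 0.123 with both an intensity trend and a robust prior). Aldh3a1, an aldehyde dehydrogenase, fell (-0.73 ± 0.13 SE, adjusted p = 0.0469), and that call was lost whichever array was left out (limma adjusted p = 0.0542 to 0.184). The brightest club cell genes, Scgb1a1, Scgb3a2 and Cyp2f2, had log2 fold changes of 0.30, -0.14 and 0.12, and none of them passed. Of the 12 club cell genes 7 lay below 0 and 5 above 0, with a median of -0.19. An unadjusted p under 0.05 was reached by 4 of the 12. None of 13 ciliated cell genes passed, although 12 lay below 0 and 7 had an unadjusted p under 0.05 (median -0.38).

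Cartilage and most basal cell markers were low on every array. None of the 13 cartilage genes passed the filter, with values of 0.353 to 21.2 and sums of 132 and 109 in wild type against 123 and 104 in floxed lungs. Of 9 basal cell genes 8 lay below the filter, Krt5 and Trp63 among them, at 0.598 to 30.3. Of 10 genes of airway glands on the array, 3 were tested and none passed, with no unadjusted p under 0.05. Most cardiac muscle genes were lower in the floxed lungs. Of 13 tested, 10 fell, with summed intensities of 5611 and 8222 in wild type against 826 and 675 in floxed lungs and a list median of -2.99. That sum was lowest on floxed replicate 2, while Bpifa1 and Bpifb1 were lowest on floxed replicate 1. Of 7 adipocyte genes tested, 4 fell, with a median of -0.91. Adipoq and Retn were tested only through the wild type arrays, since their floxed means lay under the filter's level. The same held for Myh6, Sln, Mb and Ryr2 of cardiac muscle. Without the filter Adipoq, Retn, Fabp4, Ryr2 and Actc1 missed the threshold (limma adjusted p = 0.0831, 0.112, 0.0644, 0.104 and 0.0572). The adipocyte list's summed intensity, untested genes included, was 3505 and 3198 in wild type against 3128 and 3183 in floxed lungs. Lpl, its brightest gene, lay above 0. Of 4 sex-linked genes tested, 1 rose and 3 fell. The part of these genes in the differences of Bpifa1, Bpifb1, Reg3g and Ltf was not tested.

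Neutrophils, which store lactoferrin and lipocalin 2, gave no difference that passed. Of 14 genes on the array 5 were tested, none passed limma's adjusted p of 0.05 and none had an unadjusted p under 0.05 (median -0.07). S100a8, the brightest, read 394 and 574 in wild type against 540 and 267 in floxed lungs. The granule genes Ngp, Camp, Mpo and Elane lay below the filter. The list's summed intensity was 910 and 1194 in wild type against 1134 and 677 in floxed lungs. The part of neutrophils in the Ltf difference was not tested.

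Macrophage and alveolar type 2 genes were compared because of Lyz2. Of 13 alveolar macrophage genes 1 rose, the scavenger receptor Marco (60.2 and 73.1 against 275 and 267, log2 fold change 1.80 ± 0.13 SE, limma adjusted p = 0.00218), with a list median of 0.18. Of 13 genes of interstitial macrophages and monocytes 3 rose, with a median of 0.73, and Fcgr4, an activating Fc receptor, had the largest value (1.37 ± 0.17 SE, adjusted p = 0.0136). The others were Fcgr1 and C1qb, and without wild type replicate 2 neither passed (limma adjusted p = 0.0747 and 0.175). Fcgr1 was also lost without wild type replicate 1 or floxed replicate 1 (0.0775 and 0.0589), and C1qb without floxed replicate 1 or 2 (0.105 and 0.0669). None of 14 alveolar type 2 genes passed, 2 had an unadjusted p under 0.05, and the median was 0.07. Sftpc read 9204 and 8743 in wild type against 13619 and 10831 in floxed lungs. Floxed replicate 1 was the highest array, as for Lyz2 and for the club cell gene Scgb1a1, and it also had the highest maximum of the arrays.

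**Figure D4:**
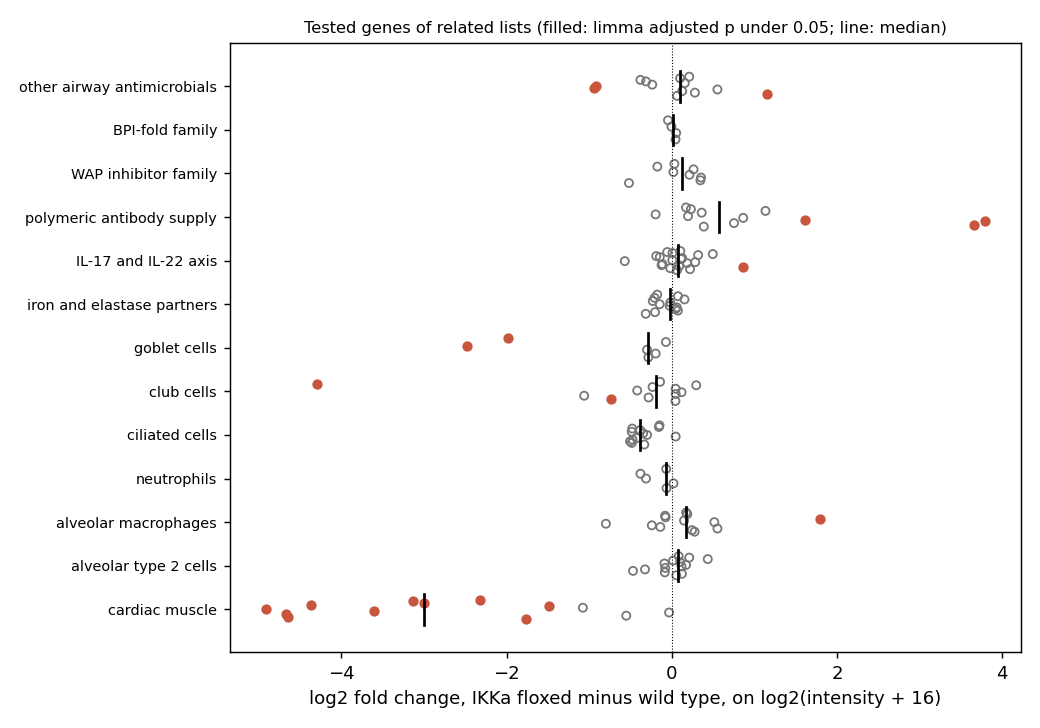
Log2 fold changes, IKKa floxed minus wild type, of the tested genes in 13 of the related lists, with none of the 9 genes included. Each circle is a gene, filled circles passed limma's adjusted p of 0.05, and the vertical line marks the list median. Muc5b and Tff2 of the goblet cell list and Scgb3a1 of the club cell list lie below the rest of their lists, and the cardiac muscle list has its median at -2.99.

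Differences between the floxed arrays were part of the pattern. Floxed replicate 1 lay farther from the wild type mean than replicate 2 for 7 of the 9 genes, the exceptions being Ltf and Pigr. The same held for 61.8% of the 220 genes that passed limma's threshold and for 52.4% of all genes tested. Among calls it held for 74.0% of those higher and 45.2% of those lower. Bpifb1 and Slpi had gaps between the floxed arrays of 0.79 and 0.45 on the log2 scale, at the 98.9th and 90.8th percentiles of all genes. Reg3g and Ltf had gaps of 0.10 and 0.11, at the 32.9th and 35.3rd percentiles.

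The genes whose profiles lay nearest to the 3 members with the largest differences were found by Euclidean distance over the 4 arrays, after each gene's log2 values were centred. Nearest to Bpifa1 were Scgb3a1 (distance 1.19), Car3, an adipose and muscle carbonic anhydrase (1.62), and Eif2s3y (1.88). Nearest to Bpifb1 were Muc5b (0.58), Smim6 (0.63) and Tff2 (0.68). Nearest to Reg3g were the Y-linked Uty (0.43), and Tnnt2 and Myl4 of cardiac muscle (0.49 and 0.56). With only 4 arrays many profiles can look alike.

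Genes that lie beside the members in the genome showed no call. Among the 5 protein-coding genes on each side of each member in RefSeq order, members left out, there were 71 different genes, of which 38 were tested. None passed limma's adjusted p of 0.05, 4 had an unadjusted p under 0.05, and their log2 fold changes ran from -0.41 to 0.35 with a median of -0.03.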

How the data were processed

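The values deposited by the authors are linear intensities of 45101 probe sets, 64 of them array controls, on each of the 4 arrays. Per the submitters' processing notes the authors used Affymetrix Expression Console. The sources used here give neither its version nor the summarization method. With 2% trimmed from each end, the mean intensity was 150.001 on every array. The number of arrays limits the precision, and no detection calls were used.

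Probe sets with exactly 1 gene symbol in the platform annotation (34958) were kept, and each gene was represented by the probe set with the highest mean of log2(intensity + 16). Genes under the 30th percentile of that mean (intensity 20.4) were left out. Groups came from the sample titles. The comparison used lmFit and eBayes of limma 3.58.1 under R 4.3.3 (no covariates, two-sided, Benjamini-Hochberg adjustment over 12736 genes, threshold 0.05), with 2 residual degrees of freedom and 4.78 prior ones. An exact permutation test of 2 against 2 cannot go below 0.333 and was not used. The fit was also run on simulated data for this comparison, with 200 of 12736 genes changed in each of 10 runs. It recovered 5.82% of 1.5-fold, 73.7% of 2-fold and 99.4% of 4-fold changes, and 5.75% of its calls were false. The simulation drew variances from the fit's own prior, with independent normal noise and no dependence on intensity. A low share of false calls was thus built in, and these figures do not carry over to the real arrays.

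The members and the 20 gene lists were chosen with earlier results of these data known. The named genes were the members, in each list those past the threshold (up to 6 by adjusted p) and up to 3 of the brightest, and the 3 nearest profiles of the 3 members with the largest difference. Other list genes and genomic neighbours, named for their role or place, were chosen after their values were seen. Promoter windows were aligned with Biopython 1.88. The alternatives tried were the pseudocount, the filter, the scaling, the probe set rule, the variance prior, the replicate block and leaving out each array.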

Additional observations from a re-analysis of the deposited data

How the results depend on the processing

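Of 108 member values under 12 alternatives, 98 moved by less than the replicate SD and 10 by more, and no called member changed sign. Much of the 98 was fixed in advance. The filter, the variance prior and the replicate block cannot change a fold change. The probe set rules cannot change that of a gene with 1 probe set. Leaving out 1 array cannot move a value by more than that SD, so the 98 is no measure of stability. Bpifa1, Bpifb1, Reg3g and Ltf stayed below 0 and Slpi and Lcn2 above 0 in all 12. Lyz1 was -0.81 on its probe set without a shared-sequence suffix, an alternative chosen after seeing the data. The cause of these moves was not tested. Nothing is read from the counts of members that follow, since these genes were picked with this comparison in view. The count of members past the limma threshold, 5 with all arrays, was 1 with a pseudocount of 1 (Reg3g) and 2 with no filter on low genes (Bpifb1 and Reg3g), and 4 to 5 with one array left out. The count over all genes, 220, was 103 with a pseudocount of 1, 360 with 64, 69 with no filter, and 384 with both an intensity trend and a robust prior, a setting in which Bpifa1 did not pass. It was 148 to 248 with one array left out. The count of list genes, 29, was 19 with a pseudocount of 1, 37 with 64, 13 with no filter, 40 with both the trend and the robust prior, and 21 to 29 with one array left out, when 21 to 25 were shared with the 29. The labels do not say whether same-numbered arrays are paired. The correlation of same-numbered deviations over genes was -0.00029, which cannot exclude a pairing that acts on some genes. With the replicate block, 188 genes, 5 members and 26 list genes passed.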
